A study of Mus musculus with 14 samples.

Results

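The genes described here are 9 epidermal transcription factors that work beside p63 in stratified epithelium: Grhl1, Grhl2, Grhl3, Klf4, Klf5, Tfap2a, Tfap2c, Ovol1 and Zfp750. They were taken by name from the keratinocyte count table, in which gene numbers were turned into symbols, and from the epidermis count table. All 9 of 9 were found among the 27179 genes of the first and the 24411 genes of the second, and 9 of 9 passed the filter on low counts in each. RNA sequencing was done on 2 kinds of newborn mouse material. Cultured keratinocytes were primary cells that proliferated in low-calcium medium, with 3 p63beta and 3 p63alpha libraries. Epidermis gave 4 p63beta and 4 p63alpha libraries. The p63beta mice carried KRT14-Cre and homozygous floxed exon 13 of Trp63 (KRT14-Cre;Trp63-Ex13fl/fl), while the p63alpha mice carried the floxed alleles without the recombinase (Trp63-Ex13fl/fl). Both genotypes therefore share the floxed alleles, and the keratin 14 promoter limits the recombinase to cells that have used it, chiefly basal keratinocytes and their descendants. Since the labels leave unsaid if the libraries of a genotype derive from different animals, the p-values speak of the spread between libraries alone.

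The p63 protein marks epithelial enhancers, and several families of factors occupy the same enhancers or are switched on by p63 there. Grainyhead-like factors (GRHL) act on genes of cell junctions and the skin barrier, AP-2 factors act with p63 from the first commitment to surface ectoderm, and Krüppel-like factors divide between basal cells (KLF5) and barrier-forming cells (KLF4). ZNF750, the human counterpart of Zfp750, and OVOL1 take part in the change to terminal differentiation.

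The libraries held 25455374 to 29229809 counted read pairs in p63beta and 20688027 to 30066041 in p63alpha keratinocytes, and 23280242 to 44909629 estimated counts in p63beta and 21290068 to 34144606 in p63alpha epidermis. The basal keratin Krt5 was at 15860 ± 3033 CPM (counts scaled by TMM-adjusted library size) in p63beta and 16630 ± 3925 CPM in p63alpha keratinocytes (SD, n = 3 each). Of the 5 basal markers there, 2 had a log2 fold change of p63beta over p63alpha below 0. The 3 above 0 were Itga6 (0.48 ± 0.16), Col17a1 (0.50 ± 0.28) and Itgb4 (0.345 ± 0.248, SE). EdgeR called none of the 5, and their summed CPM overlapped between genotypes. Krt1, a suprabasal keratin, was at 6.60 ± 5.18 CPM in p63beta and 7.86 ± 2.83 CPM in p63alpha keratinocytes (SD, n = 3 each), against 53320 ± 5989 CPM in p63beta and 53870 ± 14270 CPM in p63alpha epidermis (SD, n = 4 each). Trp63 itself stood at 343, 358 and 390.5 CPM in p63beta and 193, 179 and 178 CPM in p63alpha keratinocytes. There it was higher without overlap, and edgeR called it (log2 fold change 0.989 ± 0.085, SE, edgeR adjusted p 0.0297). In epidermis Trp63 stood at 546, 706, 765 and 544 CPM in p63beta and 486, 374, 631 and 259 CPM in p63alpha. These ranges overlapped, and edgeR did not call it (0.55 ± 0.26, SE, edgeR adjusted p 0.9999). These totals cover exons outside the deleted one and so do not check the deletion. One keratinocyte library, p63beta 3, held heart muscle transcripts: the 5 markers of that list summed to 2596 CPM there, against at most 197 CPM in any other keratinocyte library. The 5 melanocyte markers summed to 784 to 966 CPM in p63beta and 409.5 to 1543 CPM in p63alpha keratinocyte libraries. In epidermis they summed to 294 to 431 CPM in p63beta and 106 to 234 CPM in p63alpha libraries. The names of the epidermis columns begin with 02HZ (3 libraries per genotype) or with another prefix (1 per genotype, KO2 and WT3), which are treated below as batches.

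In cultured keratinocytes, 2 of the 9 factors, Zfp750 and Grhl1, were lower in every p63beta library than in any p63alpha library, and none was higher without overlap. Over all genes tested, 5.8% were lower and 12.3% were either lower or higher in this way. No factor passed edgeR's quasi-likelihood test at an adjusted p under 0.05, a level that 0.101% of all genes reached. Before adjustment 2 of 9 had a p under 0.05, against 6.85% of all genes, and DESeq2 called 1 of 9, against 1.46% of all genes. The authors' deposited table calls 1 of 9, against 1.5% of its genes, and edgeR with the replicate number as a block called 0 of 9, against 0.268% of all genes. With that block 3 of 9 (Zfp750, Grhl1 and Grhl3) had an unadjusted p under 0.05, against 12.9% of all genes. Within the 3 numbered pairs of libraries, Zfp750, Grhl1, Grhl2 and Grhl3 were lower in p63beta in every pair, Klf4 was higher in every pair, and the other 4 factors had both signs. Some of these ratios were near 0, such as -0.02 for Grhl2 in pair 3 and 0.03 for Klf4 in pair 2. The share of all genes with 1 sign in every pair was not counted, so these signs are description only. The log2 fold changes of p63beta over p63alpha ran over -0.88 to 0.19 with 7 of 9 below 0 and a median of -0.13, while 50.3% of all genes were below 0 and their median was -0.001. Without p63alpha library 1 the number of factors lower without overlap was 5 of 9, when 18.7% of all genes were lower in this way. Klf5, Grhl3 and Tfap2a were the 3 added, named after their values were seen.

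In epidermis, 0 of the 9 factors were separated by genotype, against 3.07% of all genes. Also 0 of 9 passed edgeR's test at an adjusted p under 0.05, which 0.232% of all genes passed, 0 of 9 had an unadjusted p under 0.05 (4.64% of all genes), and DESeq2 called 0 of 9 (0.947% of all genes). The authors' deposited table calls 0 of 9, and 0.896% of its genes. The log2 fold changes ran over -0.31 to 0.63 with 4 of 9 below 0 and a median of 0.04, and over all genes 50.7% were below 0 with a median of -0.004. In whole epidermis, fewer cells of a type and less RNA per cell cannot be told apart.

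**Figure D1:**
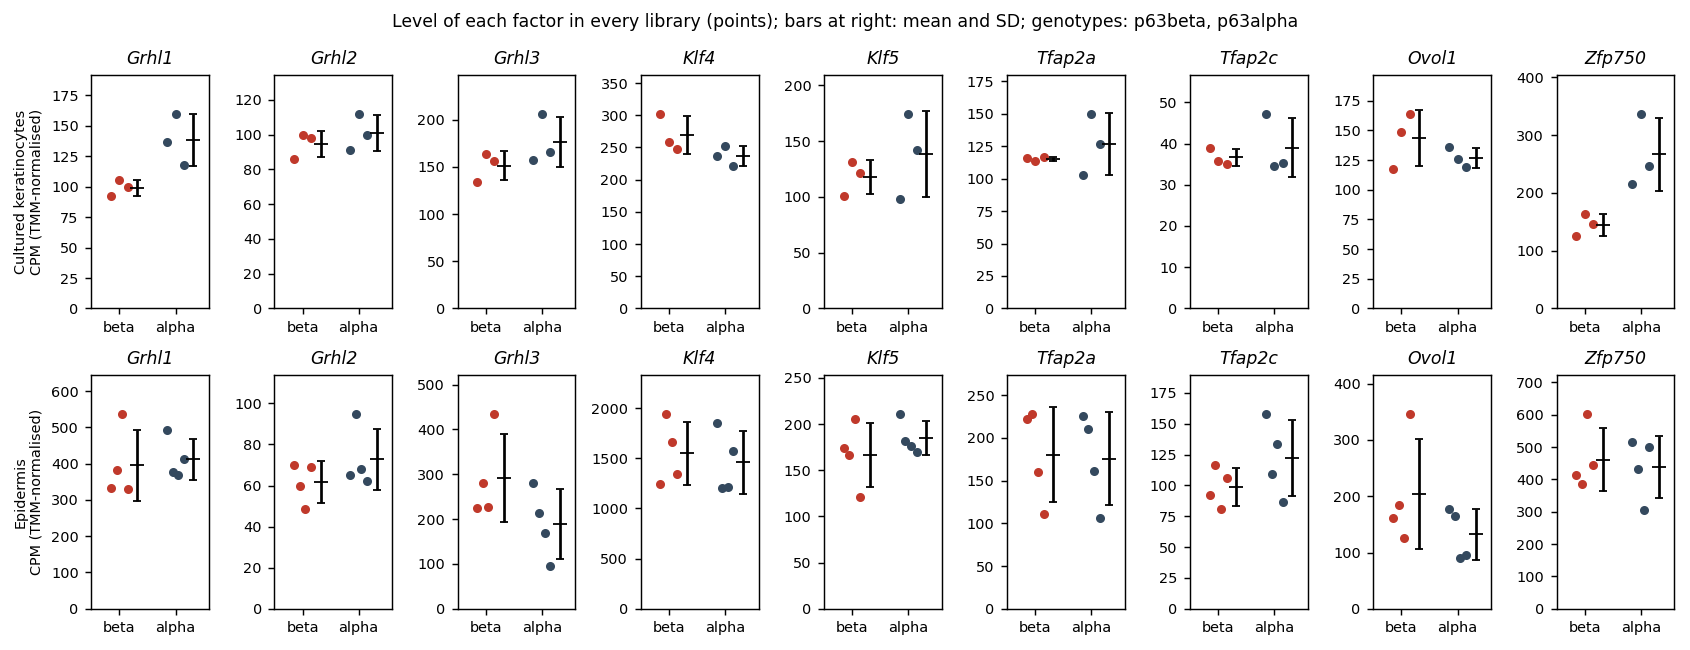
Normalised CPM (vertical axis, from 0) of the 9 factors in each library, keratinocytes above and epidermis below, with p63beta points left of p63alpha points and the mean and SD beside each group. In keratinocytes the p63beta and p63alpha points of Zfp750 and Grhl1 do not overlap, and in epidermis the points of all 9 factors overlap.

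Among the differentiation regulators, Zfp750 had the largest difference of the 9 in keratinocytes. The gene encodes a zinc finger protein, which in human skin is a p63 target that acts on terminal differentiation, and it lies on the minus strand of chromosome 11 at 121510976 to 121519342 (mm10) in 3 exon segments. It measured 125, 163 and 146 CPM in p63beta libraries 1, 2 and 3, against 215, 338 and 247 CPM in p63alpha libraries 1, 2 and 3. The highest p63beta library lay below the lowest p63alpha library. EdgeR put the log2 fold change at -0.88 ± 0.19 (SE), with a 95% interval of 0.394 to 0.748 for the fold and an edgeR adjusted p of 0.360. DESeq2 on the same counts did call it and gave a log2 fold change of -0.90 ± 0.21 (SE) with an adjusted p of 0.00236. The authors' deposited table gives -0.72 with an adjusted p of 0.00232. That value is a shrunken log2 fold change, so its size is not comparable with those from edgeR and DESeq2. Within the numbered pairs of libraries, p63beta over p63alpha was -0.78, -1.05 and -0.76 on the log2 scale, and edgeR with the replicate number as a block gave -0.86 ± 0.09 (SE, adjusted p 0.0577). Leaving out p63beta library 3, with its heart muscle transcripts, gave -0.90 ± 0.25 (SE), and the values of the 6 leave-one-out fits ran over -1.03 to -0.67 with adjusted p of 0.138 to 0.999. Zfp750 lies inside Tbcd, a tubulin-folding gene on the opposite strand. The keratinocyte reads were counted by strand, and Tbcd had 90.9, 116 and 112 CPM in p63beta and 118, 120.1 and 109 CPM in p63alpha keratinocytes, overlapping ranges (-0.12 ± 0.11 log2 fold change with SE, edgeR adjusted p 0.922). Tbcd had 28.8 to 51.2 CPM in p63beta and 34.4 to 47.0 CPM in p63alpha epidermis, for which no strand setting is given in the sources used here.

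Zfp750 in epidermis was at 415, 385, 603 and 443 CPM in the p63beta libraries EP10, EP11, EP12 and KO2, against 514, 433, 306 and 499 CPM in the p63alpha libraries EP07, EP08, EP09 and WT3. The ranges overlapped, and the lowest value belonged to a p63alpha library. The log2 fold change there was 0.07 ± 0.21 (SE, edgeR adjusted p 0.9999), with a 95% interval of 0.761 to 1.46 for the fold. Limma on log2(TPM + 1), which has no TMM scaling, put it at -0.02, so its sign in epidermis changed with the method.

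Klf4, a Krüppel-like factor needed for the mouse skin barrier, measured 303, 258 and 248 CPM in p63beta and 237, 253 and 221 CPM in p63alpha keratinocytes. Its 2 highest values were in p63beta libraries, and the other p63beta library lay within the p63alpha range. The ratios within pairs 1, 2 and 3 were 0.35, 0.03 and 0.17 on the log2 scale, and the block gave 0.18 ± 0.09 (SE, edgeR adjusted p 0.462). The log2 fold change came to 0.19 ± 0.11 (SE, edgeR adjusted p 0.826; 95% interval of the fold 0.952 to 1.36). In epidermis Klf4 had 1246, 1943, 1663 and 1343 CPM in p63beta and 1852, 1204, 1214 and 1570 CPM in p63alpha. In each genotype the values were spread over a like range, and the estimated log2 fold change stood at 0.09 ± 0.21 (SE, edgeR adjusted p 0.9999), with -0.01 from limma on log2(TPM + 1).

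Ovol1 encodes a zinc finger repressor that in mouse epidermis restrains the growth of late progenitors, and it lies on the minus strand of chromosome 19 at 5549137 to 5560575 (mm10). Keratinocytes had 118, 149 and 164 CPM in p63beta and 136, 126 and 119 CPM in p63alpha. The lowest value was in p63beta library 1 and the 2 highest were the other p63beta libraries. EdgeR put the log2 fold change at 0.18 ± 0.14 (SE, edgeR adjusted p 0.899; 95% interval of the fold 0.902 to 1.42). In epidermis Ovol1 had 161, 184, 126 and 346 CPM in p63beta and 177, 165, 90.5 and 95.7 CPM in p63alpha. The p63beta library KO2 was far above the other 7, which spanned 90.5 to 184 CPM. The log2 fold change came to 0.63 ± 0.34 (SE, edgeR adjusted p 0.9999), and it was 0.25 without KO2.

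Of the 3 grainyhead-like genes, Grhl1 was the one whose keratinocyte libraries did not overlap. Grhl1, whose loss in mice disturbs desmosomes and hair anchorage, lies on the plus strand of chromosome 12 at 24572287 to 24617391 (mm10). It measured 92.4, 105 and 99.8 CPM in p63beta and 137, 160.1 and 118 CPM in p63alpha keratinocytes. Every p63beta library was below every p63alpha library. The estimated log2 fold change stood at -0.48 ± 0.12 (SE), with a 95% interval of 0.581 to 0.883 for the fold and an edgeR adjusted p of 0.449. DESeq2 gave an adjusted p of 0.0668, and the block by replicate number gave an edgeR adjusted p of 0.163. The authors' deposited table gives a shrunken log2 fold change of -0.44 with an adjusted p of 0.0662. The ratios within pairs 1, 2 and 3 were -0.57, -0.61 and -0.24 on the log2 scale, and the value without p63beta library 3 was -0.50 ± 0.16 (SE). In epidermis Grhl1 had 333, 382, 538 and 330.2 CPM in p63beta and 492, 378, 368 and 412 CPM in p63alpha. The highest and the lowest of the 8 values were both in p63beta libraries, and the log2 fold change came to -0.06 ± 0.20 (SE, edgeR adjusted p 0.9999).

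Grhl2, a factor that keeps epithelial junction genes active, had 86.3, 99.6 and 98.2 CPM in p63beta and 91.2, 112 and 99.6 CPM in p63alpha keratinocytes. The ranges overlapped, and edgeR put the log2 fold change at -0.09 ± 0.10 (SE, edgeR adjusted p 0.947; 95% interval of the fold 0.787 to 1.12). Within pairs 1, 2 and 3 Grhl2 differed by -0.08, -0.17 and -0.02 on the log2 scale, and the block gave -0.09 ± 0.06 (SE, edgeR adjusted p 0.607). In epidermis it had 70.2, 59.6, 48.4 and 69.2 CPM in p63beta and 65.2, 94.9, 68.2 and 62.5 CPM in p63alpha, again with overlap (-0.23 ± 0.18 log2 fold change with SE, edgeR adjusted p 0.9999). Grhl3, which is required for the mouse skin barrier and for wound closure in mouse embryos, lies on the minus strand of chromosome 4 at 135541888 to 135573620 (mm10). It had 134, 164 and 156 CPM in p63beta and 158, 207 and 166 CPM in p63alpha keratinocytes. The lowest value was in p63beta and the highest in p63alpha, with overlap between, and the estimated log2 fold change stood at -0.22 ± 0.13 (SE, edgeR adjusted p 0.841; 95% interval of the fold 0.684 to 1.07). Within pairs 1, 2 and 3 it differed by -0.23, -0.34 and -0.09 on the log2 scale, and the block gave -0.22 ± 0.08 (SE, edgeR adjusted p 0.348). In epidermis Grhl3 had 225, 281, 226 and 435 CPM in p63beta and 280.1, 212, 168 and 95.5 CPM in p63alpha. KO2 was the highest of the 8 libraries and WT3 the lowest, and the other 6 overlapped. EdgeR put the log2 fold change at 0.63 ± 0.32 (SE, edgeR adjusted p 0.9999), and it was 0.37 without KO2.

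The epidermis values of Grhl3 and Ovol1 came apart by batch. Among the 6 libraries of the 02HZ batch, edgeR gave log2 fold changes of 0.15 for Grhl3 and 0.12 for Ovol1 (adjusted p 0.999 each). The single pair of the other batch, KO2 over WT3, differed by 2.19 for Grhl3 and 1.86 for Ovol1 on the log2 scale, with no replicate check. A batch term in the fit of all 8 libraries gave 0.63 for Grhl3 and 0.54 for Ovol1 (edgeR adjusted p 0.998 each). For the other 7 factors the ratio of KO2 to WT3 lay between -0.49 (Klf5) and 0.29 (Tfap2c) on the log2 scale. Marker sums of these libraries also differed. The basal sum was 18300 CPM in KO2 and 6737 to 18270 CPM in the other p63beta libraries, against 7091 CPM in WT3 and 11860 to 14640 CPM in the other p63alpha libraries. The suprabasal sum was 126000 CPM in KO2 and 153900 CPM in WT3, each the highest of its genotype. The late sum (Lor and Ivl) was 16270 CPM in KO2 and 10480 CPM in WT3, again each the highest of its genotype. Their part in the Grhl3 and Ovol1 values was not tested.

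**Figure D2:**
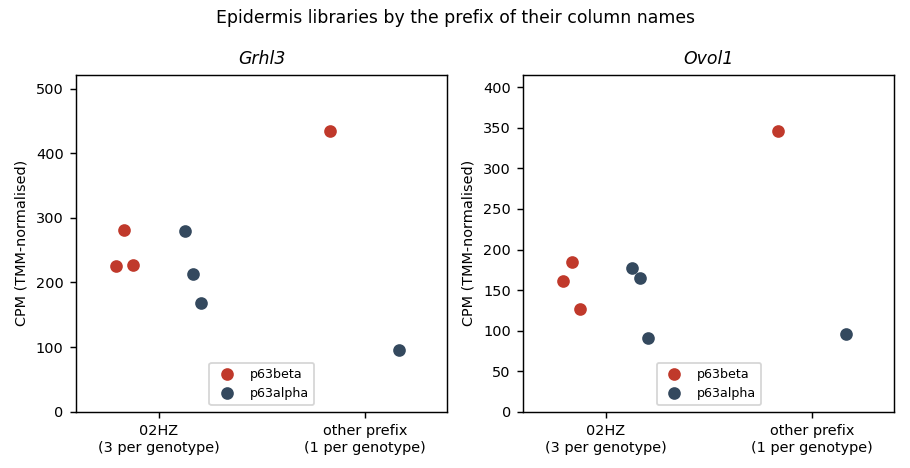
Normalised CPM of Grhl3 and Ovol1 in the 8 epidermis libraries by batch, each point 1 library, p63beta left of p63alpha within a batch. The genotypes overlap in the 02HZ batch, and in the other batch the p63beta library is at 435 CPM against 95.5 CPM for Grhl3 and at 346 CPM against 95.7 CPM for Ovol1.

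Of the factors tied to basal cells and early ectoderm, Klf5 had 101, 131 and 122 CPM in p63beta and 98.4, 175 and 142 CPM in p63alpha keratinocytes. Its p63alpha values spread so widely that they enclosed all 3 p63beta values, and edgeR put the log2 fold change at -0.23 ± 0.22 (SE, edgeR adjusted p 0.928; 95% interval of the fold 0.589 to 1.23). In epidermis Klf5 had 174, 166, 205 and 121 CPM in p63beta and 211, 182, 176 and 170.2 CPM in p63alpha, where the p63beta values enclosed 3 of the 4 p63alpha values (-0.15 ± 0.18 log2 fold change with SE, edgeR adjusted p 0.9999).

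Tfap2a, the AP-2 alpha gene, had 116, 114 and 116 CPM in p63beta and 103, 150.1 and 126 CPM in p63alpha keratinocytes. The p63beta libraries were nearly equal and sat inside the p63alpha range, and the estimated log2 fold change stood at -0.13 ± 0.14 (SE, edgeR adjusted p 0.940; 95% interval of the fold 0.721 to 1.15). In epidermis Tfap2a had 222, 228, 160.3 and 110.5 CPM in p63beta and 226, 209.9, 161 and 106 CPM in p63alpha. In both genotypes the library of the smaller batch (KO2, WT3) was the lowest, and the log2 fold change came to 0.04 ± 0.28 (SE, edgeR adjusted p 0.9999), with -0.06 from limma on log2(TPM + 1). Melanocytes also express Tfap2a, and the melanocyte marker Dct was at 197 ± 29.0 CPM in p63beta and 97.5 ± 32.7 CPM in p63alpha epidermis (SD, n = 4 each). Keratinocyte libraries also held melanocyte markers, and the part of melanocytes in the Tfap2a level was not tested in either system.

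Tfap2c, the AP-2 gamma gene, had 39.0, 35.7 and 35.1 CPM in p63beta and 47.3, 34.6 and 35.2 CPM in p63alpha keratinocytes. Library 1 of each genotype was its highest, and edgeR put the log2 fold change at -0.09 ± 0.14 (SE, edgeR adjusted p 0.970; 95% interval of the fold 0.74 to 1.19). In epidermis Tfap2c had 92.2, 116, 80.6 and 106 CPM in p63beta and 158, 109.6, 134 and 86.5 CPM in p63alpha. The 2 highest values were in p63alpha libraries and the ranges overlapped (-0.30 ± 0.20 log2 fold change with SE, edgeR adjusted p 0.9999).

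**Figure D3:**
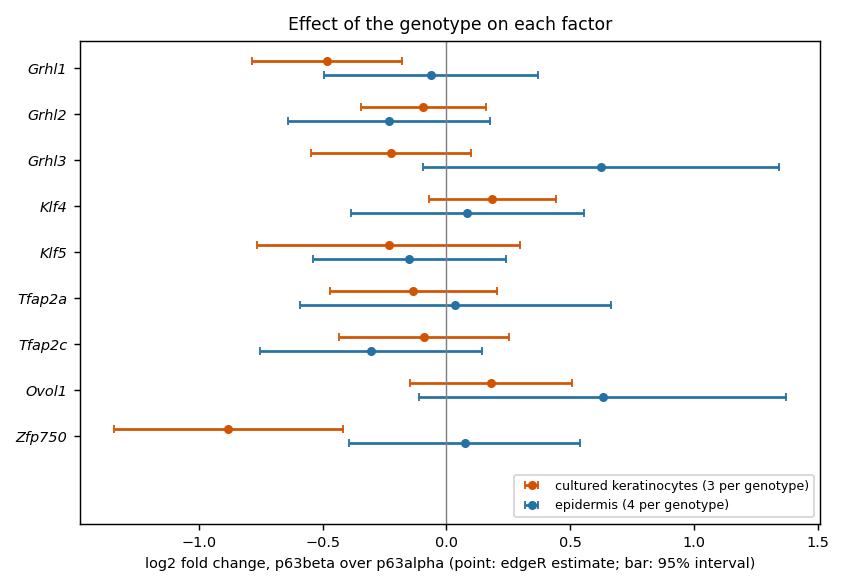
Log2 fold change of p63beta over p63alpha for each factor (points, edgeR) with 95% intervals (bars), in keratinocytes and in epidermis. The intervals of Zfp750 and Grhl1 in keratinocytes lie below 0, and all other intervals include 0. Intervals are not adjusted for the number of genes tested, and edgeR called neither factor after adjustment.

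A joint fit of all 14 libraries asked whether the effect of the genotype differed between epidermis and keratinocytes. None of the 9 factors was called by edgeR (adjusted p 1.0 for each), nor was any of the 14659 genes tested, 0.0%. Before adjustment, 1 of 9 had a p under 0.05, against 4.22% of all genes. That factor was Zfp750, whose log2 fold change was 0.97 ± 0.31 (SE) higher in epidermis than in keratinocytes. Its 95% interval was 0.30 to 1.65 and its unadjusted p was 0.00814. For Grhl3 the difference was 0.88 ± 0.44, for Ovol1 0.48 ± 0.45 and for Grhl1 0.44 ± 0.26 (SE). The other 5 factors lay between -0.20 and 0.19.

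Levels per transcript length allow the factors to be set in order within each system. In p63beta keratinocytes Klf4 led with 88.5 ± 11.8 FPKM (SD, n = 3), followed by Klf5 with 67.9 ± 7.84, Grhl3 with 54.2 ± 4.47, Ovol1 with 49.2 ± 7.05 and Zfp750 with 44.5 ± 5.10 FPKM. Tfap2a, Grhl1, Grhl2 and Tfap2c followed at 35.1, 28.0, 19.1 and 11.9 FPKM. Grhl3 overlapped with Ovol1 and Ovol1 with Zfp750, and the other neighbours in this order did not overlap. In p63alpha keratinocytes Zfp750 (82.3 ± 19.99), Klf5 (80.3 ± 22.8), Klf4 (77.9 ± 4.89) and Grhl3 (63.6 ± 9.72 FPKM, SD, n = 3) overlapped as neighbours at the top. Ovol1, Grhl1 and Tfap2a followed at 43.7, 39.2 and 38.7 FPKM, and Grhl2 (20.4) and Tfap2c (12.7 FPKM) stood apart at the bottom.

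In epidermis Klf4 stood apart at the top with 826 ± 215 TPM in p63beta and 820 ± 139 TPM in p63alpha (SD, n = 4 each). Zfp750 was next with 229 ± 55.9 TPM in p63beta and 230 ± 38.3 TPM in p63alpha, and Grhl1 followed with 187 ± 53.5 TPM in p63beta and 207 ± 27.7 TPM in p63alpha. From Zfp750 down to Tfap2c every neighbour overlapped in both genotypes. Grhl2 stood apart at the bottom with 19.6 ± 3.21 TPM in p63beta and 25.2 ± 7.47 TPM in p63alpha. FPKM and TPM come from tables made with different tools, so only the order within a table is compared.

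**Figure D4:**
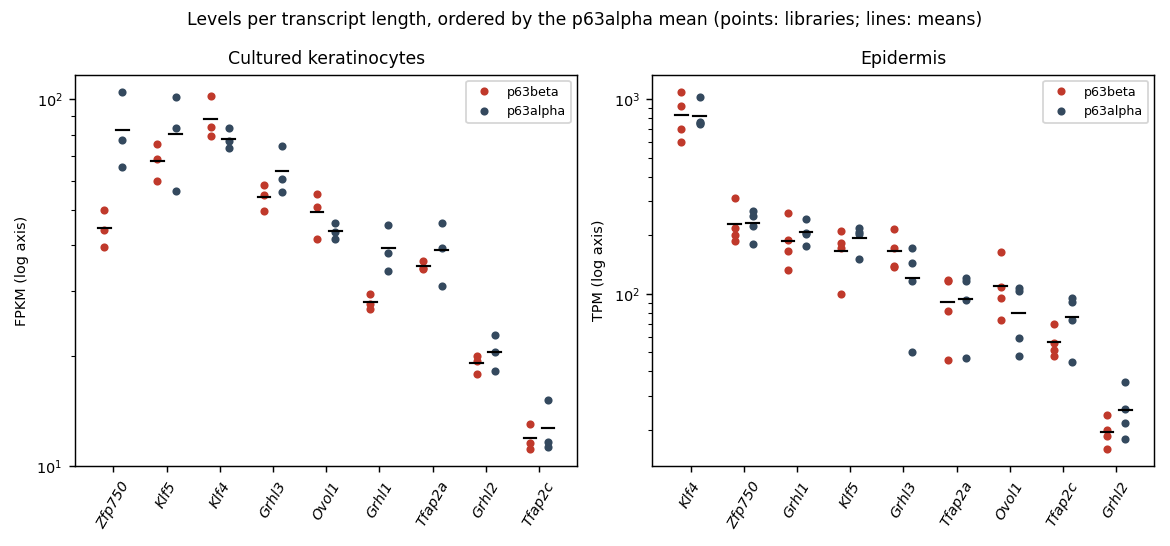
Levels per transcript length on log axes, FPKM in keratinocytes and TPM in epidermis, each point 1 library and each line a mean, with p63beta left of p63alpha for every factor. Zfp750 is below Klf4, Klf5, Grhl3 and Ovol1 in p63beta and above them in p63alpha keratinocytes by its mean, and Klf4 is apart from the rest in epidermis.

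The epidermis table separates transcripts, which the keratinocyte table does not. Of the 9 factors, Grhl1, Tfap2a and Tfap2c had at least 2 transcripts with a mean share of 5% or more of the gene's TPM. For Grhl1, the 16-exon transcript with the upstream start carried 88.1%, 85.2%, 95.9% and 74.7% in the p63beta libraries and 81.1%, 91.4%, 92.0% and 77.4% in the p63alpha libraries. KO2 and WT3 had the lowest shares of their genotypes. The means were 86.0% ± 8.78 in p63beta and 85.5% ± 7.35 in p63alpha (SD, n = 4 each; two-sided exact permutation p 0.914, adjusted 0.914 over 6 transcripts). The remainder belonged to a 14-exon transcript that starts further inside the gene. Tfap2a's main transcript held 87.2% ± 2.64 in p63beta and 88.7% ± 0.28 in p63alpha (SD, n = 4 each; exact permutation p 0.4, adjusted 0.914). For Tfap2c it was 91.0% ± 5.79 in p63beta and 92.0% ± 2.17 in p63alpha (SD, n = 4 each; exact permutation p 0.743, adjusted 0.914). With 4 against 4 libraries the smallest possible p is 0.0286.

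**Figure D5:**
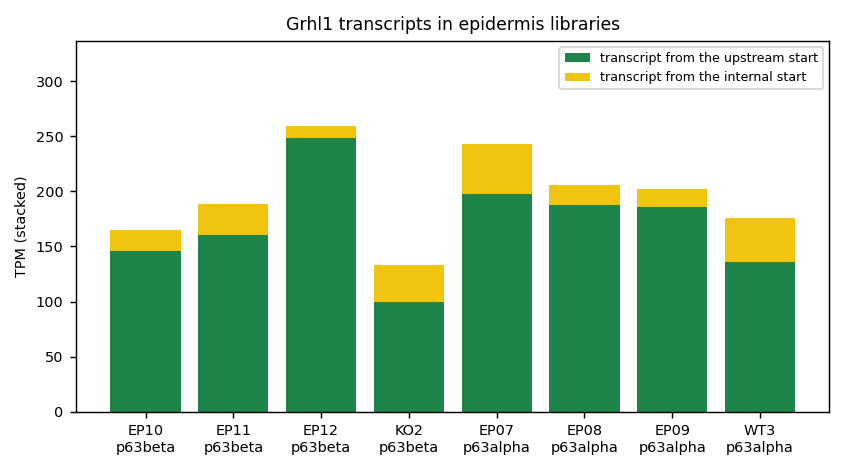
TPM of the 2 Grhl1 transcripts, stacked, in the 8 epidermis libraries, p63beta left of p63alpha. The upstream transcript makes up 74.7% to 95.9% of the TPM in p63beta and 77.4% to 92.0% in p63alpha libraries.

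Promoter windows from 250 bases before to 50 bases after the annotated start were available from RefSeq (GRCm38.p6, the same assembly as mm10) for 4 of the 9 factors, Klf4, Grhl3, Grhl1 and Tfap2a, in 6 windows. Grhl2, Klf5, Tfap2c, Ovol1 and Zfp750 are only named here. The 2 Grhl1 windows are shown because Grhl1 is the factor among these 4 whose libraries were separated by genotype in keratinocytes, and because its 2 epidermis transcripts begin near them. Both are on the plus strand, and capitals mark the letters GCCNNNGGC, an AP-2-type motif.
Grhl1 upstream promoter, chr12:24572037-24572336: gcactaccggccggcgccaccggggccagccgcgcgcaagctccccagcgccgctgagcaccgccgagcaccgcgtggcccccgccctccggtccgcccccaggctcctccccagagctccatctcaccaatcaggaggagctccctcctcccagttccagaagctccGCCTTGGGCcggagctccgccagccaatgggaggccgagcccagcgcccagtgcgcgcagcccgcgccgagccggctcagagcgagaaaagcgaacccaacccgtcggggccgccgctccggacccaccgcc
Grhl1 internal promoter, chr12:24580469-24580768: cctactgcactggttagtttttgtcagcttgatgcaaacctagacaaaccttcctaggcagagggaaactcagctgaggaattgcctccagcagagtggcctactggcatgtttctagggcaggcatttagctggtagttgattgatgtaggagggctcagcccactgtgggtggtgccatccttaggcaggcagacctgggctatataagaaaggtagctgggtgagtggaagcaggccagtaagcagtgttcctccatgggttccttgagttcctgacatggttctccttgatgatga
The upstream window is 75.3% G and C and the internal one 51.3%, against a median of 52.7% over 32851 promoters. The single GCCNNNGGC match lies 82 bases before the upstream start, and 16.6% of all promoters hold this motif on either strand. Klf4 has 1 such match 9 bases before its start. Grhl3 has 1 match to the KLF-type motif GGGNGTGG 118 bases before its start, a motif held by 17.6% of all promoters. No window of the 4 factors matched the GRHL-type motif AACNGGTT (2.09% of all promoters), the p53 family pair (CATG, 6 bases of any kind, CATG; 0.712%) or TATAAA (13.6%). All motifs were searched on both strands, and a match is a description of letters only.

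The wider network was read from lists of related genes, chosen with earlier results of these data known. Their counts beside all genes are therefore description and no independent test. Of 22 epithelial junction, barrier and splicing genes, many of them known to depend on grainyhead-like factors and all tested, 0 were called by edgeR in keratinocytes, 9 had an unadjusted p under 0.05 (6.85% of all genes had one), and DESeq2 called 2 (1.46% of all genes), both lower. In p63beta keratinocytes 19 of these 22 had a log2 fold change below 0 (50.3% of all genes), with a median of -0.28. Of the 22, 8 were lower in every p63beta library, against 5.8% of all genes. Another 1 was higher without overlap, where 12.3% of all genes were either lower or higher in this way. The summed level of the list overlapped, at 8906 to 10680 CPM in p63beta and 9938 to 10860 CPM in p63alpha keratinocytes. Without p63beta library 3, 18 of 22 were below 0 and 8 of 22 were lower without overlap, against 8.31% of all genes. Without p63alpha library 1, 10 of 22 were lower without overlap, against 18.7% of all genes. The 2 with the lowest p were also the 2 that DESeq2 called. Cldn3, a tight junction claudin, was at 41.0 ± 4.74 CPM in p63beta and 69.8 ± 7.21 CPM in p63alpha (SD, n = 3 each; log2 fold change -0.77 ± 0.12, SE, edgeR adjusted p 0.176). Tgm1, the transglutaminase that cross-links the cornified envelope, was at 110 ± 12.4 CPM in p63beta and 196 ± 40.2 CPM in p63alpha (SD, n = 3 each; log2 fold change -0.83 ± 0.17, SE, edgeR adjusted p 0.305). In epidermis 13 of the same 22 genes were below 0 (50.7% of all genes), with a median of -0.02. Of the 22, 0 were lower without overlap, where 3.07% of all genes were lower or higher in this way. EdgeR called 0 (0.232% of all genes), DESeq2 called 0 (0.947%), and 1 had an unadjusted p under 0.05 (4.64%). With shares this small, 0 of 22 does not set epidermis apart from all genes.

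Among 40 genes of terminal differentiation, 32 were tested in keratinocytes, 19 of them below 0 (50.3% of all genes) with a median log2 fold change of -0.15. Without p63beta library 3 the median was 0.12 and 12 of 32 were below 0, while with the replicate block the median was -0.25 and 23 of 32 were below 0, so the sign of this median changed with the setting. The summed level of the list in p63beta and p63alpha was 6899 and 7667 CPM in pair 1, 3379 and 4960 CPM in pair 2, and 3210 and 3733 CPM in pair 3. None was called by edgeR, 4 of 32 had an unadjusted p under 0.05 (6.85% of all genes), and DESeq2 called 4 (1.46% of all genes), Fabp5, Sprr2h and Tgm1 lower and Ivl higher. Fabp5, a fatty acid binding protein, was at 129 ± 14.6 CPM in p63beta and 254 ± 62.4 CPM in p63alpha keratinocytes (SD, n = 3 each; log2 fold change -0.98 ± 0.19, SE, edgeR adjusted p 0.302). Tgm1 is in both lists. Ivl, the envelope precursor involucrin, was at 102 ± 27.8 CPM in p63beta and 36.6 ± 23.5 CPM in p63alpha (SD, n = 3 each; log2 fold change 1.47 ± 0.46, SE, edgeR adjusted p 0.575). The 3 late markers, Lor, Flg and Ivl, summed to 81.4 to 143 CPM in p63beta and 25.3 to 72.6 CPM in p63alpha keratinocytes. Most of this sum was Ivl. The log2 fold change was -0.13 ± 0.60 for Lor and 0.37 ± 1.21 for Flg (SE). In epidermis 31 of 39 tested genes of this list were above 0 and 8 below 0, where 50.7% of all genes were below 0. The median of the list was 0.20, and 2 of 39 had an unadjusted p under 0.05 (4.64% of all genes). None of the 39 was separated by genotype (3.07% of all genes). The summed level of the list overlapped, at 153300 to 204300 CPM in p63beta and 113000 to 210300 CPM in p63alpha libraries. EdgeR called 0 (0.232% of all genes) and DESeq2 called 0 (0.947%). Flg was not analysed there.

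Relatives of the 9 factors and other epidermal regulators were read in the same way. Of 18 tested among 23 relatives (other Krüppel-like, AP-2, OVO-like and CP2 genes), edgeR called 0 in either system, the unadjusted p was under 0.05 for 1 in keratinocytes (6.85% of all genes) and 0 in epidermis (4.64%), and DESeq2 called 1, Klf6, in keratinocytes (1.46%) and 0 in epidermis (0.947%). In keratinocytes 2 of the 18 were lower without overlap (5.8% of all genes) and 0 were higher. With 18 genes these counts are too small to be told from the shares over all genes. Klf6 was at 288 ± 4.67 CPM in p63beta and 389 ± 53.6 CPM in p63alpha keratinocytes (SD, n = 3 each; log2 fold change -0.43 ± 0.12, SE, edgeR adjusted p 0.480). Of 64 tested other epidermal regulators in keratinocytes, 40 were below 0 with a median of -0.07, edgeR called 0, 5 had an unadjusted p under 0.05 (6.85% of all genes), and DESeq2 called 1, Fosl1 (1.46%), counts near the shares over all genes. Fosl1, an AP-1 subunit, was at 92.2 ± 9.38 CPM in p63beta and 62.8 ± 6.87 CPM in p63alpha keratinocytes (SD, n = 3 each; log2 fold change 0.55 ± 0.12, SE, edgeR adjusted p 0.348). Of 65 tested in epidermis, 30 were below 0 with a median of 0.02, edgeR called 0, 4 had an unadjusted p under 0.05 (4.64% of all genes), and DESeq2 called 1, Id1 (0.947%), again near those shares. This inhibitor of basic helix-loop-helix factors was at 37.5 ± 8.98 CPM in p63beta and 18.9 ± 6.06 CPM in p63alpha epidermis (SD, n = 4 each; log2 fold change 0.98 ± 0.26, SE, edgeR adjusted p 0.347).

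Likeness of pattern was measured over the 14 libraries as the root mean square difference of log2 CPM centred within each table, among 12607 genes. The nearest gene was Celsr2 for Grhl1 (0.0950), Snx18 for Grhl2 (0.0960), Specc1l for Tfap2c (0.1004), Mbtps2 for Klf5 (0.113), Cog2 for Klf4 (0.116), Ppig for Tfap2a (0.130) and Gdpd1 for Zfp750 (0.1398). For Grhl3 it was Ifitm2 (0.219) and for Ovol1 Sfn (0.221). The measure grows with a gene's own spread, which was 0.464 for Grhl3 and 0.448 for Ovol1 about their means, against 0.207 to 0.380 for the other 7 factors. How near the nearest gene lies for other genes is not given here, so these distances are description only. Within the 9 factors, 3 pairs were each other's nearest: Grhl1 and Klf5 at 0.217, Grhl3 and Ovol1 at 0.267, and Grhl2 and Tfap2c at 0.299. Grhl3 and Ovol1 were also the factors with a wide log2 ratio of KO2 to WT3 (2.19 and 1.86). The part of these 2 libraries in their likeness was not tested.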

How the data were processed

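RNA from cultured keratinocytes and epidermis was prepared with a stranded mRNA kit, per the labels. The keratinocyte table deposited by the authors holds read-pair counts per RefSeq gene, made with featureCounts 1.5.2 (strand setting 2, minimum overlap 25 bases, both ends mapped) on mm10, per the file headers. STAR, Subread, Salmon and DESeq2 are named in the submitters' processing notes, with no versions given in the sources used here. The authors also deposited FPKM for keratinocytes, which were recomputed from the counts within 0.1% for 100% of values. Expected counts from Salmon (4.88% of values not whole) and TPM were deposited by the authors for epidermis, per gene and per transcript. A table of log2 fold changes and adjusted p-values per system was deposited by the authors, and its 14 per-library columns were not used. The deposited log2 fold changes are named as shrunken for keratinocytes and not for epidermis. The row without a gene identifier in the keratinocyte table (1 row) was left out. Epidermis columns are named WT or KO, taken as p63alpha (WT) and p63beta (KO) since the keratinocyte file header pairs these words with the genotypes, and they carry no replicate number.

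Each system was fitted alone over all genes with edgeR 4.0.16 in R 4.3.3 (expected counts rounded, TMM, filterByExpr, robust quasi-likelihood test). Adjusted p-values are Benjamini-Hochberg values over all genes tested, and a gene was called under 0.05. Intervals of fold changes are 95% intervals from that fit, each for a single gene and not adjusted for the number of genes tested. CPM are TMM-normalised. The difference between systems was an interaction term in a joint fit of the 14 libraries over the 23203 genes of both tables. Exact permutation tests of transcript shares ran over the 70 splits of 8 libraries (SciPy 1.17.1). Fits were tested on simulated data. Alternatives were DESeq2 1.42.0, limma 3.58.1 with a pseudocount of 1 or 0.1, RLE size factors, no filter, robust estimation off, leaving out each library, a batch term, the 02HZ batch alone and a replicate block.

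Same-numbered p63beta and p63alpha keratinocyte libraries deviated together from their group means (Pearson r 0.624, 0.526 and 0.271 across 11560 genes). The numbers were taken to pair them for the ratios and the block, though the labels do not state pairs. Unmatched libraries gave r of -0.534 to 0.217, the highest of these close to the 0.271 of pair 3. Deviations from a group mean cancel within the group, so matched and unmatched r are not independent. The pairing of libraries 2 and 3 is not settled by these values. No 2 libraries of a group agreed within sampling noise (lowest chi-square per degree of freedom 19.4). The 9 factors and the gene lists were chosen with earlier results of these data known. The rule for named genes takes the 9 factors, Trp63, the nearest gene in pattern to each factor, called genes and the 2 with the lowest p of each list per system, and defining markers of cell types. The text names part of these. Klf5, Grhl3 and Tfap2a as the 3 added without a library, Tbcd, and genes named because DESeq2 called them were singled out after their values were seen. Gene positions are those of the keratinocyte table. In GENCODE, Zfp750 lies within Tbcd, and antisense genes overlap Grhl2, Tfap2a and Ovol1.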

Additional observations from a re-analysis of the deposited data

How the results depend on the processing

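Of 450 values of the factors under an alternative, 419 kept their direction and their side of the threshold, 28 changed sign and 3 passed the threshold. All 3 were Zfp750 in keratinocytes: -0.90 with DESeq2 (adjusted p 0.00236), -0.72 (shrunken) in the authors' deposited table (0.00232) and -0.91 with the replicate block without pair 1 (0.0194). Genes called in keratinocytes numbered 14, against 211 with DESeq2, 208 in the authors' deposited table, 37 with the replicate block, 585, 0 and 1 with that block without pair 1, 2 or 3, and 1 to 4 with 1 library left out. The block changed no call of a factor. In epidermis 32 genes were called, against 152 with DESeq2, 144 in the authors' deposited table, 8 in the 02HZ batch alone and 10 to 28 with 1 library left out. No epidermis fit paired libraries, since the columns carry no numbers. Factors lower without overlap in keratinocytes numbered 2 to 5 with 1 library left out.

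Signs that changed belonged to values near 0. In keratinocytes, Tfap2a was 0.023 with the block without pair 2 and -0.284 to 0.008 with 1 library left out. Tfap2c was 0.022 with the block without pair 1 and -0.17 to 0.05 with 1 library left out. In epidermis, limma with either pseudocount put Klf4 at -0.013 and Zfp750 at -0.019, and Tfap2a at -0.063 (pseudocount 1) or -0.064 (pseudocount 0.1). These limma fits used TPM without TMM scaling, and every factor was lower with them than in the main epidermis fit. Examples with pseudocount 1 are Klf5 (-0.267 against -0.15) and Ovol1 (0.484 against 0.632). The 02HZ batch alone put Grhl1 at 0.015. With 1 epidermis library left out, Grhl1 spanned -0.246 to 0.035, Klf4 -0.043 to 0.22, Tfap2a -0.143 to 0.209 and Zfp750 -0.084 to 0.16. The difference between systems spanned -0.22 to 0.024 for Grhl2, -0.212 to 0.045 for Klf4 and -0.126 to 0.294 for Klf5. The share of the main transcript, p63beta minus p63alpha, spanned -2.85 to 4.23 percentage points for Grhl1 and -3.07 to 0.92 for Tfap2c. The cause of these shifts was not tested. With 3 or 4 libraries per genotype, the intervals in epidermis leave folds of up to 2.54 for Grhl3 and 2.59 for Ovol1. Leaving pairs out of the block, the 02HZ batch alone, the other settings for factors lower without overlap and the lists without p63beta library 3 or with the block were chosen after seeing the data.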
